A study of Homo sapiens with 16 samples.

Results

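The tumor necrosis factor (TNF) superfamily was examined in OCI-AML3, an established cell line of acute myeloid leukemia with high RARA expression. Members were the rows of the gene table whose symbol starts with TNFSF or TNFRSF followed by a number, together with TNF, LTA, LTB, FAS, FASLG, CD40, CD40LG, CD27, LTBR and NGFR. This gave 47 of 62700 rows, of which 42 were protein genes (26 receptors and 16 ligands) and 5 were antisense, divergent or readthrough rows. RNA was sequenced from 16 libraries: untreated cells (n = 4), and cells treated for 3 h with ATRA at 0.1 µM (n = 3), with Am80 at 0.1 µM (n = 3), or with either retinoid at the same dose together with GSK-LSD1 (0.1 µM), which inhibits the histone demethylase LSD1, and MB3 (100 µM), which inhibits the histone acetyltransferase GCN5 (n = 3 each). ATRA (all-trans retinoic acid) activates all retinoic acid receptors, whereas Am80 (tamibarotene) is selective for RARA. No library came from cells that received the inhibitors alone, and both inhibitors were always given together, so an effect of the inhibitors is measured beside a retinoid and their single effects cannot be told apart. The design asks whether selective activation of RARA differs from activation of all receptors, without and with the inhibitors of LSD1 and GCN5.

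Ligands of the TNF superfamily are mostly trimeric membrane proteins of immune cells, which can be shed into soluble form, and they bind receptors with cysteine-rich repeats. A group of receptors carries a cytoplasmic death domain, through which FADD and caspases or the adaptor TRADD and the kinase RIPK1 are recruited, whereas the other signalling receptors bind TRAF proteins and activate NF-kappaB. Decoy receptors bind the ligand without passing on a death signal. In myeloid cells, TNF is a central inflammatory cytokine, and TNFSF10 (TRAIL) can kill leukemic cells through its death receptors TNFRSF10A and TNFRSF10B. NGFR, the low-affinity neurotrophin receptor, is a death domain receptor of the same family whose ligands are not TNF superfamily proteins.

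The libraries held 11963898 to 33789718 reads on genes (2.82-fold between the shallowest and the deepest). Values are DESeq2-normalized counts, and differences were tested with limma on log2(normalized count + 1) over the 14643 genes that averaged at least 10 normalized counts, with Benjamini-Hochberg adjustment over all of them. A gene was counted as changed at an adjusted p-value under 0.05 and a change of more than 1.5-fold. Fold changes are on the log2(normalized count + 1) scale, errors of log2 differences are standard errors (SE), and errors of levels are standard deviations (SD) over the libraries of a group. As a check of the labels, the retinoid target CYP26A1 had no read in untreated cells and 86.5 to 120 normalized counts with either retinoid alone, and all 8 myeloid markers were expressed. With the inhibitors added, CYP26A1 was lower, at 46.7 to 70.8. DHRS3, read for the same check, was lower too (1369 to 1757 against 2254 to 2527 with a retinoid alone). RARB, also read, overlapped (93.2 to 131 against 119 to 165). Of 5 T cell markers, none exceeded 3 reads in any library and CD3D and CD2 had no read, while the natural killer marker NCAM1 reached 4408 reads. No label names separate cultures, so p-values measure the spread between libraries, which may be technical.

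Of the 47 rows, 26 passed the filter, among them 24 protein genes: 6 of 7 death domain receptors, 7 of 15 receptors without a death domain, 2 of 4 decoy receptors and 9 of 16 ligands. The other protein members had few or no reads. FASLG, the ligand of FAS, and the decoy receptor TNFRSF6B had no read, although TNFRSF6B lies within a readthrough gene and its reads may have been counted elsewhere. LTA, LTB, CD40LG, TNFSF8, TNFSF18 and TNFSF11 had at most 3, 7, 6, 2, 1 and 16 reads in any library, respectively. Among the receptors, CD27 had at most 8 reads, TNFRSF8 at most 7, TNFRSF4 and TNFRSF18 at most 5, TNFRSF19 at most 4, TNFRSF17 and TNFRSF11B at most 3, TNFRSF9 and TNFRSF13B at most 1, and the death domain receptor TNFRSF25 at most 11. TNFSF15, a ligand of TNFRSF25, passed the filter only through the treated groups and therefore had to differ. Every other tested member had a mean above the filter in each of the 5 groups.

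Per kilobase of exon, TNFRSF10B, a receptor for TRAIL, and TNFRSF1A, a receptor for TNF, were the most abundant members in untreated cells, whereas per kilobase of the longest transcript LTBR ranked first at 1056, before TNFRSF1A at 991 and TNFRSF10B at 780. TNFRSF10B stood at 627 ± 34.0 normalized counts per kilobase of exon (SD, n = 4) and TNFRSF1A, the main TNF receptor of most cells, at 550 ± 31.3. The lymphotoxin beta receptor LTBR followed at 391 ± 22.4, TNFSF9, the ligand of the costimulatory receptor TNFRSF9, at 335 ± 68.5, the decoy receptor TNFRSF10D at 294 ± 15.5, and TNFRSF1B, the second TNF receptor, at 272 ± 23.9. The ranges of the 4 libraries overlapped between LTBR and TNFSF9, between TNFSF9 and TNFRSF10D, and between TNFRSF10D and TNFRSF1B, so that the order of these neighbours is not resolved, whereas TNFRSF10B and TNFRSF1A did not overlap. The ligands TNFSF13B (BAFF) and TNFSF10 (TRAIL) stood at 183 ± 5.35 and 149 ± 9.18. FAS, TNFRSF21 and TNFRSF10A lay together at 110 ± 4.30, 101 ± 6.68 and 98.6 ± 7.95, each overlapping its neighbour. Per kilobase of the longest transcript, FAS stood apart at 183, against 101 for TNFRSF21 and 107 for TNFRSF10A. By that measure TNFSF10 (264) also ranked before TNFSF13B (214). TNF and NGFR were at 46.6 ± 6.06 and 46.0 ± 5.89, within the range of each other. TNFSF4 was at 8.98 ± 2.03, and TNFSF15 was the lowest at 0.158 ± 0.130.

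**Figure D1:**
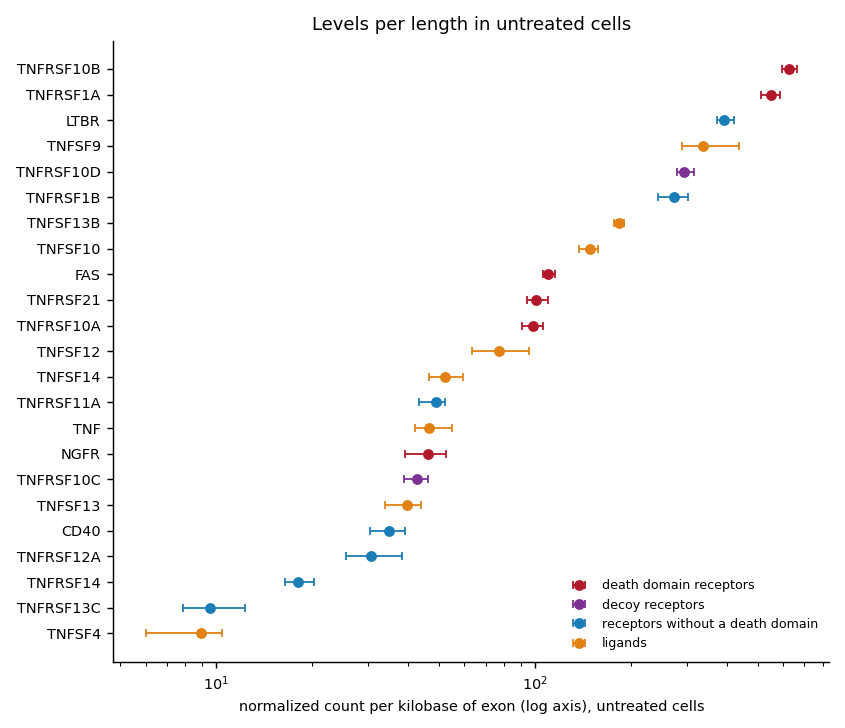
Normalized count per kilobase of exon (log axis) in untreated cells for the tested protein genes other than TNFSF15, whose lowest library was at 0. Points are means of 4 libraries, bars run from the lowest to the highest library, and colours give the role. Levels ranged from 8.98 for TNFSF4 to 627 for TNFRSF10B.

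Treatment with either retinoid alone changed few members, led by NGFR. With ATRA, 3 of 26 members were higher (11.5%, against 6.52% of all genes tested) and 1 was lower (3.85%, against 2.94%). With Am80, 3 were higher (11.5%, against 6.41%) and 2 were lower (7.69%, against 3.76%). The members called higher were NGFR, TNFSF4 and TNFSF15 with both retinoids, of which the filter fixed the direction of TNFSF15. Without it, 2 of 25 members were higher (8%) with either retinoid, and 1 was lower with ATRA (4%) and 2 with Am80 (8%). The median log2 difference of the members was -0.19 with ATRA and -0.13 with Am80, against -0.02 and -0.01 over all genes tested. Both comparisons use the same untreated libraries and are therefore not independent. In bulk RNA, a change in the number of cells that carry a transcript and a change in the RNA per cell cannot be told apart.

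NGFR, the death domain receptor for neurotrophins, rose 6.93-fold with ATRA and 6.36-fold with Am80. The 4 untreated libraries held 183, 162, 202 and 218 normalized counts. With ATRA the values were 1251, 1387 and 1328, and with Am80 they were 1331, 970 and 1384. Every retinoid library thus lay far above every untreated one, and Am80 replicate 2, the deepest library, was the lowest among them. The log2 difference was 2.79 ± 0.13 (SE) for ATRA (adjusted p = 3.33e-13, limma) and 2.67 ± 0.13 for Am80 (adjusted p = 6.78e-13, limma). With both inhibitors added, NGFR fell to 376, 255 and 313 normalized counts beside ATRA and to 344, 319 and 314 beside Am80. These 6 libraries overlapped neither the libraries with the retinoid alone nor the untreated ones, so that NGFR lay between both. Relative to the retinoid alone, the log2 difference was -2.08 ± 0.14 for ATRA (adjusted p = 5.12e-10, limma) and -1.90 ± 0.14 for Am80 (adjusted p = 1.69e-09, limma). Relative to untreated cells, NGFR remained 1.63-fold higher with ATRA and the inhibitors (adjusted p = 8.00e-05, limma) and 1.71-fold higher with Am80 and the inhibitors (adjusted p = 3.24e-05, limma). The first of these calls was lost when counts were scaled to total reads (log2 difference 0.56), and without ATRA plus inhibitors replicate 1 (0.57).

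**Figure D2:**
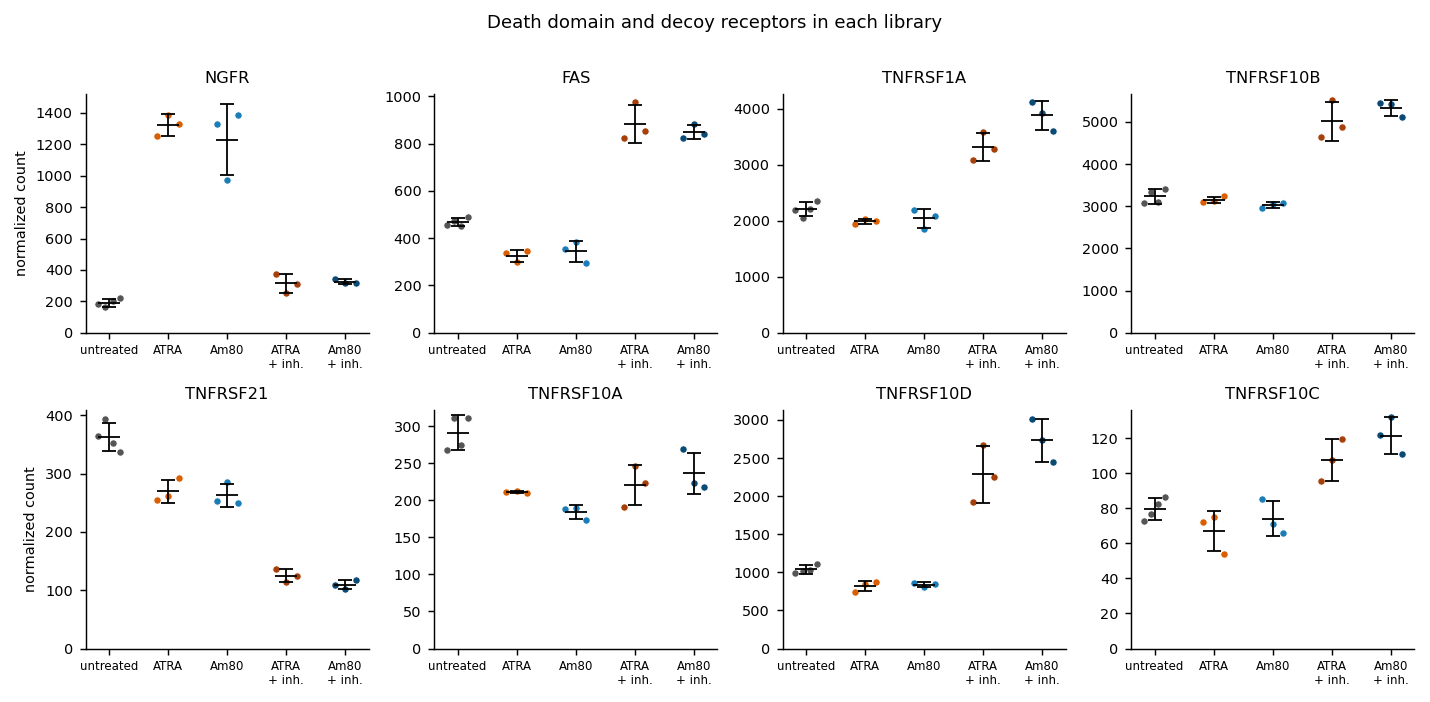
Normalized counts of the death domain receptors and decoy receptors (linear axes from 0) in untreated cells (n = 4) and with ATRA, Am80 and either retinoid plus both inhibitors (+ inh., n = 3 each). Points are libraries, black bars are mean ± SD. NGFR rose from 162 to 218 in untreated cells to 970 to 1387 with a retinoid and stood at 255 to 376 with the inhibitors, whereas FAS was highest with the inhibitors (822 to 975).

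TNFSF4, the ligand of the T cell costimulatory receptor TNFRSF4, was the second member that rose with both retinoids. Untreated libraries held 23.7, 36.9, 41.1 and 39.9 normalized counts, ATRA libraries 65.6, 75.05 and 78.5, and Am80 libraries 89.1, 88.0 and 78.8. The groups did not overlap, and the rise was 2.07-fold with ATRA (log2 difference 1.05 ± 0.17, adjusted p = 5.39e-05, limma) and 2.42-fold with Am80 (1.27 ± 0.17, adjusted p = 4.27e-06, limma). With the inhibitors added, TNFSF4 stood at 77.1, 80.4 and 81.8 beside ATRA and 81.1, 64.6 and 69.5 beside Am80, and it remained 2.27-fold and 2.03-fold above untreated cells (adjusted p = 4.05e-06 and 2.53e-05, limma). Against the retinoid alone, the 95% confidence interval of the log2 difference ran from -0.24 to 0.50 beside ATRA and from -0.62 to 0.12 beside Am80.

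TNFSF15 (TL1A), a ligand of the death domain receptor TNFRSF25, was nearly unread without a retinoid. Untreated libraries held 1.39, 0, 2.49 and 1.11 normalized counts, 4 reads in all. With ATRA the values were 38.6, 38.0 and 35.3 (133 reads in all), and with Am80 33.4, 40.9 and 32.5 (160 reads). The ratio to untreated cells was 32.5 for ATRA (95% exact interval 12.4 to 121) and 31.9 for Am80 (12.2 to 119), where the intervals cover counting error only. With the inhibitors, TNFSF15 stood at 37.1, 16.3 and 31.8 beside ATRA (ratio to untreated cells 25.1, 9.45 to 94.5) and at 20.8, 28.9 and 25.7 beside Am80 (21.8, 8.07 to 82.4). Since TNFSF15 passed the filter only through treated libraries, these ratios are a description and no test of the change from untreated cells is given. Against the retinoid alone it was not called, with intervals of the log2 difference from -1.22 to 0.31 and from -1.26 to 0.28. Its receptor TNFRSF25 stayed under the filter.

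The 250 bases before the start of TNFSF4 and TNFSF15 are shown because TNFSF4 rose and TNFSF15 gained reads with both retinoids. Sequences are from RefSeq (GRCh38.p14), in which 15 of the 26 tested members had an upstream window. They were searched on both strands for half-sites of retinoic acid receptors (AGGTCA with its variants AGTTCA, further GGGTCA and likewise GGTTCA) and for pairs of these as direct repeats spaced by 1, 2 or 5 bases, for the kappaB motif and for the TATA box TATAAA. Neither window held any of these letters. A half-site is present in 33.8% of all 35116 windows of this length and a direct repeat in 0.202%, and 7 of the 15 matched members held a half-site and 0 a direct repeat. Shares are per window, whereas a member was counted if any of its windows held the motif, so they are not directly comparable. TNFSF15 lies on the minus strand (chr9:114792531-114792780) and TNFSF4 likewise (chr1:173205533-173205782).
TNFSF15: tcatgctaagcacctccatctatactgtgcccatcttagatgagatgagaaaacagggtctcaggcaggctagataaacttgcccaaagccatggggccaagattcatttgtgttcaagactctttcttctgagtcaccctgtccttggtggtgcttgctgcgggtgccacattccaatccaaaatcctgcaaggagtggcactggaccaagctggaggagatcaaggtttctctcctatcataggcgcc
TNFSF4: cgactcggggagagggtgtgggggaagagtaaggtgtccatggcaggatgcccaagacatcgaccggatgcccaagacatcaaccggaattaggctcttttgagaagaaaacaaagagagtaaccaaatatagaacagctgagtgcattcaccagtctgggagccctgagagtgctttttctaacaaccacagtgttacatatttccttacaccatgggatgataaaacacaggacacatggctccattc

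The members called lower with a retinoid alone were receptors. TNFRSF12A, the receptor of TNFSF12 (TWEAK), fell from 61.4, 47.1, 47.3 and 70.9 normalized counts to 28.0, 30.2 and 41.1 with ATRA and to 41.8, 20.7 and 34.0 with Am80. The groups did not overlap, and the log2 difference was -0.76 ± 0.24 for ATRA (adjusted p = 0.0224, limma) and -0.83 ± 0.24 for Am80 (adjusted p = 0.0108, limma). The ATRA call was lost without untreated replicate 1 or 4 (log2 difference -0.71 and -0.64) and without ATRA replicate 1 or 2 (-0.65 and -0.70), with adjusted p-values between 0.0545 and 0.110 (limma), and the Am80 call was lost without Am80 replicate 2 (-0.55, adjusted p = 0.102, limma). The TRAIL receptor TNFRSF10A had 268, 311, 274 and 311 normalized counts in untreated cells, 211, 213 and 210 with ATRA, and 188, 190 and 174 with Am80, without overlap between untreated and treated libraries. Its log2 difference was -0.66 ± 0.10 with Am80 (adjusted p = 4.06e-05, limma) and was within the fold limit with ATRA. The direct comparison of Am80 with ATRA for TNFRSF10A gave an interval from -0.43 to 0.03, so a difference between the retinoids was not shown.

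Most other members moved within 1.5-fold. Between the lowest and highest uncalled member, log2 differences ran from -0.54 (TNFRSF11A, the receptor RANK) to 0.51 (TNFSF9) with ATRA and from -0.56 (TNFRSF11A) to 0.54 (TNFSF9) with Am80. Without the fold limit, 13 of 26 members (50%, TNFSF15 included) passed the adjusted p-value with either retinoid, against 24.6% of all genes tested with ATRA and 28.8% with Am80. TNFRSF1B, the inducible TNF receptor of leukocytes, stood at 1018, 1027, 918 and 1138 normalized counts in untreated cells, at 1365, 1398 and 1350 with ATRA and at 1448, 1240 and 1516 with Am80. LTBR stood at 2344, 2361, 2472 and 2650 in untreated cells, at 1826, 1904 and 1930 with ATRA and at 1969, 1635 and 1990 with Am80. FAS stood at 456, 475, 451 and 491 in untreated cells, at 336, 298 and 344 with ATRA and at 354, 384 and 295 with Am80. The retinoid libraries lay above the untreated ones for TNFRSF1B and below them for LTBR and FAS, but the differences stayed under 1.5-fold. TNFRSF11A, TNFRSF21 and TNFRSF10D likewise lay below the untreated libraries without overlap. The share of all genes without such overlap was not counted, so the separation is a description only. Whether TNFSF9 and TNFRSF11A were called depended on single libraries. Without untreated replicate 4, both retinoids gave a call for TNFSF9 (log2 difference 0.64 and 0.67) and for TNFRSF11A (-0.60 and -0.62). Without Am80 replicate 1, TNFRSF11A was called with Am80 (-0.62), and without Am80 replicate 2, TNFSF9 was (0.65).

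Addition of LSD1 and GCN5 inhibitors changed more members than the retinoids did, with FAS, TNFRSF1A, TNFRSF10B, both decoy receptors and TNF higher and NGFR, TNFRSF21, TNFSF13 and TNFRSF14 lower beside either retinoid. Beside ATRA, 7 of 26 members were higher (26.9%, against 8.15% of all genes tested) and 6 were lower (23.1%, against 11.4%). Beside Am80, 6 were higher (23.1%, against 6.81%) and 4 were lower (15.4%, against 8.90%). The median log2 difference was 0.02 beside ATRA and -0.05 beside Am80, against -0.02 and -0.01 over all genes. Of the 6 death domain receptors tested, 3 rose (FAS, TNFRSF1A and TNFRSF10B) and 2 fell (NGFR and TNFRSF21) beside either retinoid, and both decoy receptors rose. Scaled to total reads, which lowered the median of all genes by 0.14 beside ATRA and by 0.12 beside Am80 on the log2 scale, 4 members were higher and 7 lower beside ATRA, and 6 were higher and 5 lower beside Am80.

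FAS, the receptor of FASLG, rose from 336, 298 and 344 normalized counts with ATRA to 822, 975 and 852 with the inhibitors added, and from 354, 384 and 295 with Am80 to 823, 884 and 841. All libraries with inhibitors lay above all others, untreated cells included. The rise was 2.70-fold beside ATRA (log2 difference 1.43 ± 0.10, adjusted p = 5.79e-10, limma) and 2.48-fold beside Am80 (1.31 ± 0.10, adjusted p = 1.79e-09, limma). Over untreated cells, FAS was 1.88-fold and 1.81-fold higher (adjusted p = 3.06e-08 and 7.04e-08, limma).

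TNFRSF1A rose from 1945, 2033 and 2000 to 3090, 3592 and 3286 normalized counts beside ATRA (1.66-fold, log2 difference 0.73 ± 0.08, adjusted p = 2.59e-07, limma) and from 2187, 1845 and 2090 to 4123, 3919 and 3602 beside Am80 (1.90-fold, 0.93 ± 0.08, adjusted p = 1.08e-08, limma). The libraries with Am80 and inhibitors lay above those with ATRA and inhibitors, although this difference did not pass the test (adjusted p = 0.171, limma). The TRAIL death receptor TNFRSF10B rose from 3107, 3122 and 3237 to 4641, 5527 and 4872 beside ATRA (1.58-fold, 0.66 ± 0.07, adjusted p = 2.06e-07, limma) and from 2962, 3042 and 3085 to 5459, 5422 and 5110 beside Am80 (1.76-fold, 0.81 ± 0.07, adjusted p = 1.25e-08, limma). Neither receptor had differed by 1.5-fold with a retinoid alone. Both rises stood close to the fold limit, and beside ATRA the rise of TNFRSF10B fell under it with total read scaling or quantile normalization (log2 difference 0.52 and 0.51), as did TNFRSF1A with quantile normalization (0.58).

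The decoy receptor TNFRSF10D, which binds TRAIL and carries an incomplete death domain, rose beside both retinoids. It went from 747, 851 and 872 normalized counts with ATRA to 1925, 2673 and 2254, and from 861, 808 and 850 with Am80 to 3011, 2739 and 2442. The rise was 2.75-fold (log2 difference 1.46 ± 0.10, adjusted p = 8.20e-10, limma) and 3.24-fold (1.70 ± 0.10, adjusted p = 8.87e-11, limma), and no library with inhibitors overlapped any without. TNFRSF10C, the decoy receptor that lacks a cytoplasmic domain, rose from 72.3, 75.05 and 54.0 to 95.7, 108 and 119 beside ATRA (1.60-fold, 0.68 ± 0.15, adjusted p = 0.000884, limma) and from 85.4, 70.9 and 65.8 to 122, 132 and 111 beside Am80 (1.64-fold, 0.71 ± 0.15, adjusted p = 0.000766, limma). The ATRA call was lost with total reads (0.54) and without ATRA replicate 3 (0.53). TNFRSF10A, by contrast, stayed within the fold limit at 191, 246 and 224 beside ATRA and 269, 223 and 218 beside Am80. The 4 TRAIL receptors are paralogs, and reads in shared sequence could have been counted for either gene. Their ligand TNFSF10 was not called, with 447, 404 and 449 normalized counts beside ATRA and 322, 328 and 400 beside Am80.

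TNFRSF21 (death receptor DR6) moved in the opposite direction. Untreated libraries held 365, 394, 352 and 338 normalized counts and retinoid libraries 255, 261 and 292 with ATRA and 253, 285 and 250 with Am80, a difference under the fold limit. With the inhibitors it dropped to 136, 114 and 125 beside ATRA (log2 difference -1.10 ± 0.10, adjusted p = 5.28e-08, limma) and to 110, 102 and 117 beside Am80 (-1.25 ± 0.10, adjusted p = 8.81e-09, limma). The untreated, retinoid and inhibitor libraries formed 3 levels without overlap. Against untreated cells the log2 difference was -1.53 ± 0.10 for ATRA plus inhibitors and -1.72 ± 0.10 for Am80 plus inhibitors (adjusted p = 3.61e-11 and 4.84e-12, limma).

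Of the 9 ligands tested, TNF was the 1 called higher on adding the inhibitors, and it was so beside either retinoid. This was 11.1% of the ligands, against 8.15% of all genes tested beside ATRA and 6.81% beside Am80. It stood at 71.1, 70.2, 92.2 and 78.7 normalized counts in untreated cells, 59.8, 79.4 and 65.5 with ATRA, and 70.6, 65.2 and 74.5 with Am80, groups that overlapped. Adding the inhibitors raised it to 219, 247 and 230 beside ATRA and to 311, 250 and 257 beside Am80. The rise was 3.38-fold (log2 difference 1.76 ± 0.14, adjusted p = 4.75e-09, limma) and 3.84-fold (1.94 ± 0.14, adjusted p = 1.22e-09, limma). TNF and TNFRSF21 are shown with their upstream bases because they are, among members with a window in RefSeq, a ligand that rose and a receptor that fell with the inhibitors. Capitals mark the TATA box of TNF (chr6:31575315-31575564, plus strand), 29 bases before the start, and a half-site GGGTCA in TNFRSF21 (chr6:47309906-47310155, minus strand), 193 bases before the start. The TATA letters occur in 10.7% and the kappaB motif in 5.21% of all windows, in 3 and 4 of the 15 matched members, and this window of TNF held no kappaB motif as searched. Here too, members were counted over any of their windows, so these counts and the shares of windows are not directly comparable.
TNF: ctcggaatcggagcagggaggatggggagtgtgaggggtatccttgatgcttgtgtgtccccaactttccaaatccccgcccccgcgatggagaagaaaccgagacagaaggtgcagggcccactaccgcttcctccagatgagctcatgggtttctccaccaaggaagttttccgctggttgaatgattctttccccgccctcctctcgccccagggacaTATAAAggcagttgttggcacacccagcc
TNFRSF21: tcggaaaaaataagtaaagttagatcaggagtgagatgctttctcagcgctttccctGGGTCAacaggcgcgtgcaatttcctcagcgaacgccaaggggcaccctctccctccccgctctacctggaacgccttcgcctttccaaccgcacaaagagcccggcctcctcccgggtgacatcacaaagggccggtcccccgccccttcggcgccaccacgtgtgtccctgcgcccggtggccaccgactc

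Other ligands fell or did not pass. TNFSF13 (APRIL), a survival factor of B cells, dropped from 100.3, 95.8 and 98.0 normalized counts to 61.5, 33.7 and 45.5 beside ATRA (log2 difference -1.09 ± 0.19, adjusted p = 7.55e-05, limma) and from 97.5, 73.5 and 91.1 to 41.7, 49.5 and 55.4 beside Am80 (-0.83 ± 0.19, adjusted p = 0.00137, limma). TNFSF12 (TWEAK) fell from 139.8, 138 and 136 to 89.8, 86.9 and 93.2 beside ATRA (-0.61 ± 0.16, adjusted p = 0.00408, limma), a call that was lost with quantile normalization (-0.48). Beside Am80, TNFSF12 had 97.6, 78.3 and 120 against 172, 117 and 142, overlapping and not called. It was called beside Am80 without Am80 replicate 2 (-0.68) and without Am80 plus inhibitors replicate 3 (-0.69). TNFSF12 and TNFSF13 are neighbours with a readthrough row, which had at most 8 reads. TNFSF9 was not called against either retinoid, although beside Am80 it was 1.40-fold higher, under the fold limit (adjusted p = 0.00294, limma). With inhibitors it reached 804, 912 and 882 beside ATRA and 1139, 1130 and 1088 beside Am80, against 519, 506, 481 and 728 in untreated cells. This was 1.57-fold for ATRA plus inhibitors (adjusted p = 4.25e-05, limma) and 2.03-fold for Am80 plus inhibitors (adjusted p = 1.41e-07, limma) above untreated cells, the former lost with total reads (log2 difference 0.50). TNFSF13B and TNFSF14 (LIGHT) were not called in any comparison, with group means from 437 to 559 and from 183 to 249. With total reads, however, TNFSF14 was called lower for Am80 plus inhibitors against untreated cells (log2 difference -0.64).

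**Figure D3:**
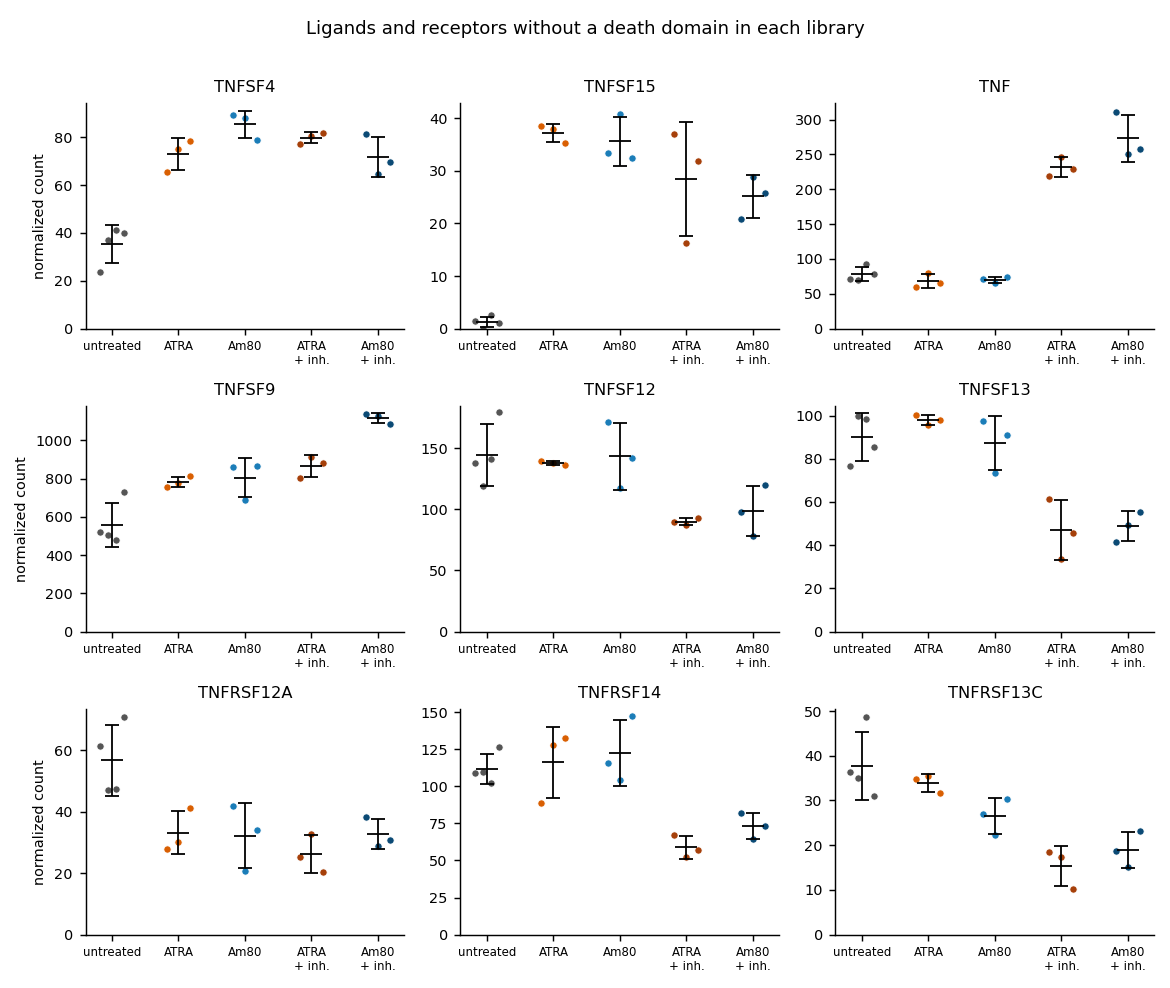
Normalized counts (linear axes from 0) of the ligands and of the receptors without a death domain that were called in a comparison. Groups as in the plot of death domain receptors, with points for libraries and black bars for mean ± SD. TNFSF4 and TNFSF15 were high in all treated groups, TNF was high with the inhibitors (219 to 311), and TNFSF13, TNFRSF14 and TNFRSF13C were lowest with the inhibitors.

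Of the 7 receptors without a death domain, 2 were lower beside ATRA (28.6%, against 11.4% of all genes tested) and 1 beside Am80 (14.3%, against 8.90%). TNFRSF14 (HVEM), the receptor of TNFSF14, fell from 88.7, 128 and 133 normalized counts to 67.4, 52.2 and 56.8 beside ATRA (log2 difference -0.96 ± 0.17, adjusted p = 9.63e-05, limma) and from 116, 105 and 148 to 82.2, 64.6 and 73.4 beside Am80 (-0.73 ± 0.17, adjusted p = 0.00169, limma), the latter lost with quantile normalization (-0.58). TNFRSF13C, the BAFF receptor of B cells, fell from 34.7, 35.4 and 31.7 to 18.5, 17.4 and 10.2 beside ATRA (-1.13 ± 0.24, adjusted p = 0.000768, limma), and beside Am80 it had 18.6, 15.1 and 23.2 against 26.9, 22.3 and 30.4 and was not called. LTBR stayed at its retinoid level, with 1772, 1667 and 1918 beside ATRA and 1921, 1927 and 1841 beside Am80. CD40, which activates antigen-presenting cells, was not called in any comparison and had group means from 85.7 to 110 normalized counts.

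Compared with untreated cells, the combinations changed more than a retinoid alone. With ATRA plus inhibitors, 9 of 26 members were higher (34.6%, against 14.2% of all genes tested) and 7 were lower (26.9%, against 14.8%). With Am80 plus inhibitors, 10 were higher (38.5%, against 12.9%) and 6 were lower (23.1%, against 13.1%). Without TNFSF15, 8 of 25 (32.0%) and 9 of 25 (36.0%) were higher, and 7 (28.0%) and 6 (24.0%) were lower. Of the 6 death domain receptors, TNFRSF10B, FAS, TNFRSF1A and NGFR were higher in both and TNFRSF21 was lower. The ligands TNF, TNFSF4 and TNFSF9 were higher in both, and TNFRSF12A, TNFRSF13C, TNFRSF14 and TNFSF13 were lower in both. TNFSF15 was also counted as higher in both, a direction that the filter fixed. TNFRSF10D was higher in both (2.18-fold and 2.62-fold, adjusted p = 2.76e-09 and 9.71e-11, limma), and TNFRSF10C was called with Am80 plus inhibitors (1.52-fold) and not with ATRA plus inhibitors (1.35-fold). TNF stood 2.96-fold and 3.47-fold above untreated cells (adjusted p = 2.27e-09 and 2.43e-10, limma).

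The split depended on the scaling. With total reads, which lowered the median of all genes by 0.15 and 0.18 on the log2 scale, 5 members were higher and 8 lower for ATRA plus inhibitors, and 8 were higher and 10 lower for Am80 plus inhibitors. TNFRSF10B (1.55-fold and 1.65-fold) and, for ATRA plus inhibitors, TNFRSF1A (1.51-fold) then fell under the fold limit. Gained as lower were LTBR for ATRA plus inhibitors (log2 difference -0.61, also with quantile normalization), and 4 members for Am80 plus inhibitors. These were TNFSF10 (-0.75), TNFSF12 (-0.73), TNFRSF11A (-0.64) and TNFSF14 (-0.64). For ATRA plus inhibitors, TNFRSF10B and TNFRSF1A were also lost without replicate 2 of that group (log2 difference 0.56 and 0.53), TNFRSF1A without untreated replicate 2 (0.56), and TNFSF12 without untreated replicate 4 (-0.55). For Am80 plus inhibitors, TNFRSF14 was lost without untreated replicate 4 (-0.54) or without replicate 2 of that group (-0.52), and TNFRSF10C without untreated replicate 1 (0.56) or replicate 2 of that group (0.54). TNFSF10 was called lower with Am80 plus inhibitors without untreated replicate 1 (-0.60) or without replicate 3 of that group (-0.66), and TNFSF12 without untreated replicate 2 (-0.64) or without replicate 3 of that group (-0.70).

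Am80 and ATRA, given at the same dose and time, were compared directly for 26 members. The compounds differ in structure, ATRA being the natural acid with a polyene chain and Am80 a synthetic aromatic amide. Without inhibitors, 0 of 26 members were called (limma), against 0.0478% of all genes tested, and edgeR and DESeq2 called 0 as well. At an unadjusted p-value under 0.05 there were also 0 members, against 13.9% of all genes, and the smallest adjusted p-value was 0.430 (limma, TNFSF13B). For 21 of 26 members, the 95% confidence interval was narrower than the fold limit on both sides, which bounds a difference without showing that the retinoids act alike. For NGFR the interval of the log2 difference, Am80 minus ATRA, ran from -0.41 to 0.16, for TNFSF4 from -0.15 to 0.59, and for TNFSF15 from -0.84 to 0.70.

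With the inhibitors, 0 of 26 members were called between the retinoids (limma), as were 0% of all genes tested, and edgeR and DESeq2 called 0 members. At an unadjusted p-value under 0.05 there were 5 of 26 members (19.2%, against 18.1% of all genes), namely TNFSF10, TNFSF9, TNFRSF1A, TNFRSF1B and TNFRSF10D, a share near that of all genes, and the smallest adjusted p-value was 0.155 (limma, TNFSF10). TNFSF9 had a log2 difference of 0.37 with an interval from 0.12 to 0.62, and TNFSF10 of -0.31 with an interval from -0.51 to -0.11. For 20 members the interval lay inside the fold limit. The interaction, which asks whether the inhibitors acted differently beside Am80 than beside ATRA, was called for 0 of 26 members and for 0% of all genes (limma), with 0 members by edgeR and DESeq2, 1 member (TNFSF10, 3.85%, against 15.1% of all genes) at an unadjusted p-value under 0.05, and a smallest adjusted p-value of 0.226. Its interval lay inside the fold limit for 12 members. For NGFR it ran from -0.21 to 0.59. A call beside ATRA and not beside Am80, as for TNFRSF13C and TNFSF12, is thus not a shown difference.

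**Figure D4:**
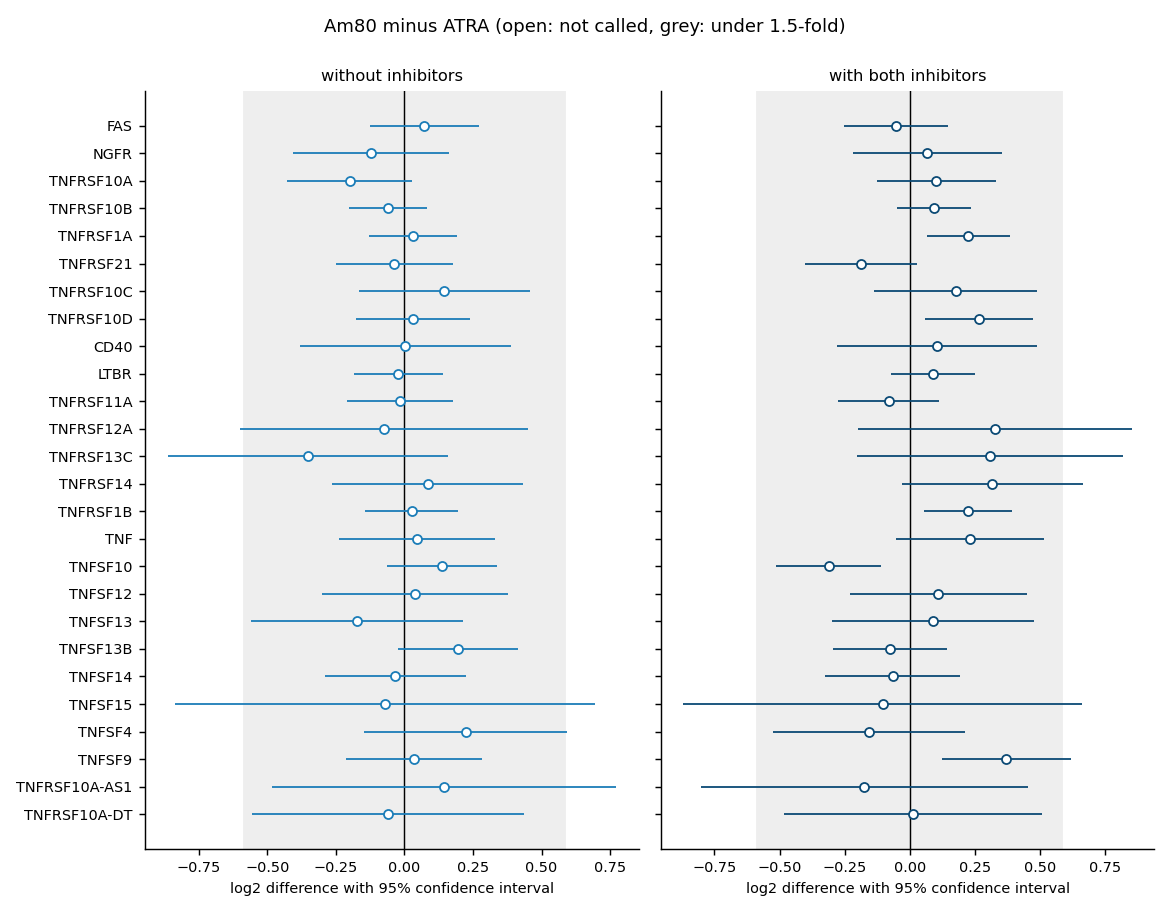
Log2 differences of Am80 minus ATRA with 95% confidence intervals (limma) for the 26 tested members, without inhibitors (left) and with both inhibitors (right). Open points were not called, and the grey band is the range under 1.5-fold. 21 of 26 intervals on the left and 20 on the right lie inside the band.

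Of 29 signalling proteins of the receptors, 28 were tested. With either retinoid, 0 were higher (0%, against 6.52% of all genes with ATRA and 6.41% with Am80). With either, 1 was lower (3.57%, against 2.94% and 3.76%), a share near that of all genes. TRAF5, an adaptor of receptors without a death domain, was the 1 protein called with a retinoid and fell with ATRA (log2 difference -0.85 ± 0.20, adjusted p = 0.00243, limma) and Am80 (-0.81 ± 0.20, adjusted p = 0.00323, limma), from 52.5 ± 4.57 normalized counts (SD, n = 4). On adding the inhibitors, 4 were higher (14.3%, against 8.15% of all genes) and 4 lower (14.3%, against 11.4%) beside ATRA, and 6 were higher (21.4%, against 6.81%) and 4 lower (14.3%, against 8.90%) beside Am80. The median log2 difference of the list was 0.23 and 0.27, against -0.02 and -0.01 over all genes. Against untreated cells, 8 were higher (28.6%, against 14.2%) and 5 lower (17.9%, against 14.8%) with ATRA plus inhibitors, and 8 higher (28.6%, against 12.9%) and 2 lower (7.14%, against 13.1%) with Am80 plus inhibitors, with medians of 0.37 and 0.38. MAP3K14 (NIK), the kinase of the alternative NF-kappaB pathway, rose beside ATRA (1.40 ± 0.15, adjusted p = 3.99e-07, limma) and Am80 (1.58 ± 0.15, adjusted p = 8.08e-08, limma). TRAF3, which directs the degradation of that kinase, rose beside Am80 (0.78 ± 0.08, adjusted p = 1.23e-07, limma). Beside ATRA, the mean of TRAF3 was also higher with the inhibitors (1738 against 1189 normalized counts). OTULIN, a deubiquitinase of linear ubiquitin, rose beside ATRA (0.64 ± 0.07, adjusted p = 5.63e-07, limma) and Am80 (0.65 ± 0.07, adjusted p = 4.75e-07, limma), and the TAK1 kinase gene MAP3K7 rose beside ATRA (0.66 ± 0.07, adjusted p = 4.48e-07, limma). Beside Am80, the mean of MAP3K7 was also higher with the inhibitors (2373 against 1590 normalized counts). A gene named for 1 retinoid is thus not a shown difference between the retinoids.

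ADAM17, the protease that sheds TNF and its receptors, rose from 431 ± 43.3 normalized counts in untreated cells (n = 4) to 980 ± 139 with ATRA plus inhibitors and 1017 ± 38.6 with Am80 plus inhibitors (n = 3 each), log2 differences of 1.18 ± 0.09 and 1.24 ± 0.09 (adjusted p = 1.08e-09 and 4.56e-10, limma). Beside ATRA the rise over the retinoid alone was 0.84 ± 0.10 (adjusted p = 9.99e-07, limma). With Am80 alone, ADAM17 stood at 570 ± 42.6, also under the level with Am80 plus inhibitors. SPPL2A, which cleaves the membrane remnant of TNF, rose over untreated cells with both combinations (0.74 ± 0.06 and 0.67 ± 0.06, adjusted p = 6.01e-09 and 2.21e-08, limma). TAB1, an activator of TAK1, fell with ATRA plus inhibitors (-1.003 ± 0.094, adjusted p = 1.73e-08, limma), and MAP3K5 (ASK1), a kinase of the TNF stress response, fell on adding the inhibitors to Am80 (-0.96 ± 0.09, adjusted p = 5.80e-08, limma). The means went the same way with the other retinoid. TAB1 stood at 807 in untreated cells and 460 with Am80 plus inhibitors, and MAP3K5 at 559 with ATRA and 332 with ATRA plus inhibitors. BIRC3 was under the filter.

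Of 16 ligands, co-receptors and partners of NGFR, 8 were tested. Those under the filter included the neurotrophins NTF3 and NTF4, the receptors NTRK2 and NTRK3, and SORCS2 and LINGO1. BDNF, a neurotrophin, rose from 30.0 ± 7.09 normalized counts in untreated cells (n = 4) to 62.9 ± 9.50 with ATRA and 68.1 ± 8.82 with Am80 (n = 3 each), log2 differences of 1.07 ± 0.23 and 1.18 ± 0.23 (adjusted p = 0.00143 and 0.000476, limma). RTN4R, the Nogo receptor that partners with NGFR in neurons, fell with both retinoids (-1.10 ± 0.25 and -1.20 ± 0.25, adjusted p = 0.00253 and 0.000993, limma) and fell again on adding the inhibitors (-1.20 ± 0.27 beside ATRA, adjusted p = 0.00107, and -0.85 ± 0.27 beside Am80, adjusted p = 0.0169, limma).

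Of the 5 antisense, divergent or readthrough rows, 2 passed the filter, both beside TNFRSF10A. TNFRSF10A-DT fell from 33.5, 36.0, 37.4 and 52.1 normalized counts in untreated cells to 26.4, 28.3 and 15.9 with ATRA plus inhibitors (log2 difference -0.75 ± 0.22, adjusted p = 0.00625, limma) and to 30.7, 20.6 and 19.3 with Am80 plus inhibitors (-0.74 ± 0.22, adjusted p = 0.00789, limma). The former was lost without ATRA plus inhibitors replicate 3 (-0.50, adjusted p = 0.0653, limma). TNFRSF10A-AS1 had 12.5, 13.8 and 18.0 with ATRA and 16.6, 30.4 and 35.2 with the inhibitors added, groups that overlapped (0.80 ± 0.30, adjusted p = 0.0332, limma). This call was lost without ATRA replicate 1 or 2 (0.70 and 0.76) and without ATRA plus inhibitors replicate 2 or 3 (0.69 and 0.59), and beside Am80 it was called when Am80 plus inhibitors replicate 1 was left out (0.81). Whether counting used the strand is not given in the sources used here, so reads of these rows and of TNFRSF10A cannot be told apart with certainty.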

How the data were processed

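RNA was sequenced from OCI-AML3 libraries in 5 groups, taken from the labels. The signal values are DESeq2-normalized counts that the authors deposited in 1 table: reads per gene, counted on Galaxy, divided by a size factor per library. Per the labels, the tools were FastQC, cutadapt, STAR, featureCounts and DESeq2, with versions, genome build, annotation release and strand setting not given in the sources used here. The labels and the methods name different kits for RNA isolation and library preparation. Reads were recovered by multiplying by the size factor, and 100% of the values were whole within 0.01 reads. A depth of 11963898 to 33789718 reads per library and counts of a few reads limit the precision, and intervals of read ratios cover counting error only, whereas confidence intervals of log2 differences come from the spread between libraries. In 18 pairs of replicates, the chi-square per degree of freedom was 2.75 to 25.9, which is above counting noise in every pair.

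Tests were run in R (4.3.3) by limma (3.58.1), with edgeR (4.0.16) and DESeq2 (1.42.0) as alternatives. Tables and plots were made in Python (3.11.15) using pandas (2.3.3), numpy (2.4.6), scipy (1.17.1) and matplotlib (3.10.9). Limma (mean-variance trend) was fitted to log2(normalized count + 1) with 1 coefficient per group over all 16 libraries. Identifiers were matched to GENCODE, which gave symbols for all 62700 rows and exon lengths for all 47 members. Members and lists were chosen with earlier results of these data known. Every tested member is named, differences are printed where called, and of the other lists up to 4 genes with the smallest adjusted p-value per comparison are named. The methods were tested on simulated data. Alternatives covered the pseudocount (0.5 and 5), the filter (none, or a minimum mean of 50), the scaling (quantiles, or total reads), edgeR and DESeq2 on the recovered reads, only the groups compared, a replicate block, each library left out, no fold limit and, for levels, the longest transcript. Counts without TNFSF15 were added after seeing the data. A few genes of the marker and partner lists are not reported here.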

Additional observations from a re-analysis of the deposited data

Results flagged for a closer look

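Of the 26 tested members, each checked for a library far from the others within the 4 untreated ones, 1 stood out, a rate that chance alone gives in about 5% of groups. TNFSF9 had 728 normalized counts in untreated replicate 4 and 481 to 519 in the other untreated libraries, and the gap to the nearest library was 0.846 of the whole range. Without this library, TNFSF9 was called higher with ATRA (log2 difference 0.64, adjusted p = 1.44e-06, limma) and with Am80 (0.67, adjusted p = 6.02e-07, limma). The reason for the high value was not tested.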

How the results depend on the processing

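Of 64 called differences of members, 4 of them of TNFSF15 against untreated cells, none reversed in any alternative, and 44 of the repeated values lost the call while 1606 kept it. Many repeats left out a library of a group that was not compared, which cannot change the difference, only its error. The number of kept calls therefore overstates how far they were tested. The counts moved by more than 1.5 times in 4 cases: with a mean of at least 50, 2 members were called for ATRA and 3 for Am80 over untreated cells, since TNFSF15 and TNFRSF12A were then not tested, and with no fold limit 13 were called for ATRA and 13 for Am80. Leaving out each library in turn gave 3 to 5 members with ATRA and 5 to 7 with Am80 against untreated cells, 14 to 16 and 14 to 18 with the combinations against untreated cells, 12 to 13 beside ATRA, 10 to 11 beside Am80, and 0 in the direct comparisons and the interaction.

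The replicate numbers showed no sign of pairing the libraries: deviations of libraries with the same number correlated between -0.112 and 0.187, and those with other numbers between -0.229 and 0.230. With so few libraries per group, a culture or batch shared by a number is not excluded. With a replicate block, 5 members were called with ATRA, 7 with Am80, 15 and 15 with the combinations against untreated cells, 13 and 10 beside the retinoids, and 0 otherwise. Untreated replicate 4 has no partner and drops out of these contrasts. The block lost TNFRSF12A with ATRA (log2 difference -0.64, adjusted p = 0.0597, limma), TNFSF12 with ATRA plus inhibitors against untreated cells (-0.55) and TNFRSF14 with Am80 plus inhibitors against untreated cells (-0.54). It gained TNFRSF11A (-0.60 with ATRA and -0.62 with Am80) and TNFSF9 (0.64 and 0.67). Depth limits members with few reads, and no protein was measured.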

Other observations

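Members under the filter showed the following when all genes with a read were tested. TNFSF11 (RANKL), the ligand of TNFRSF11A, had 44 reads over the 4 untreated libraries, 19 and 25 over the 3 libraries each with ATRA and Am80, and 3 and 5 with the combinations. It was called lower with ATRA plus inhibitors (adjusted p = 0.000716, limma) and Am80 plus inhibitors (adjusted p = 0.00568, limma) than in untreated cells, and lower with ATRA plus inhibitors than with ATRA (log2 difference -1.79, adjusted p = 0.0486, limma). TNFRSF25, the receptor of TNFSF15, had 5 reads over the untreated libraries, 25 with ATRA, 22 with Am80, and 3 and 5 with the combinations, and was called lower with ATRA plus inhibitors than with ATRA (adjusted p = 0.0118, limma). TNFRSF18 had 1 read in untreated cells, 5 with ATRA, 11 with Am80, and 1 and 0 with the combinations, and was called higher with Am80 than in untreated cells (adjusted p = 0.0159, limma) and lower with Am80 plus inhibitors than with Am80 (log2 difference -1.81, adjusted p = 0.00690, limma). In normalized counts, its means in this order were 0.231, 1.51, 2.51, 0.379 and 0. Read totals are not scaled for depth. All calls of members under the filter rest on few reads per library and were not repeated with edgeR or DESeq2.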
